A study of Homo sapiens with 12 samples.

Results

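The NME genes encode nucleoside diphosphate kinases and their relatives. The genes described here are NME1, NME2, the read-through gene NME1-NME2, NME3, NME4, NME6 and NME7, which are 7 of the 34318 genes that could be assigned in the deposited table. They were taken by gene symbol, and the set was chosen by the low measured level of NME1 after an siRNA against POLR3A. That comparison is thus part of the choice, and its values are given below as a description, with no p-value. The calls that the fit over all genes gave for them are only counted. All 81 transcripts of these genes in the GENCODE 29 annotation were found in the table.

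The cells were HEK293T, a human cell line from embryonic kidney that carries the SV40 large T antigen. Poly(A) RNA was measured in 12 libraries, 3 in each of 4 groups. In the first experiment the cells were transfected either with a control siRNA, the siControl group, or with one directed at POLR3A, the siPOLR3A group, and were taken 2 days later. POLR3A encodes the largest subunit of RNA polymerase III. In the second they were given 0.1% DMSO, the vehicle, or 25 µM ML60218, an inhibitor of that polymerase, and were taken after 4 hours. The labels name HEK293T as the cell line of all 12 libraries, although the titles in the second experiment give a shortened name without the T. Neither control was left untreated, and the sequence and number of the siRNAs are not given in the sources used here. Nothing in the labels says that the 3 libraries of a group came from separate cultures, so p-values measure the spread between these libraries, which may be technical.

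A nucleoside diphosphate kinase moves the terminal phosphate of a triphosphate, usually ATP, through a histidine of its own active site onto a diphosphate, and so supplies GTP, CTP, UTP and the deoxynucleotides. NME1 and NME2 are the abundant cytosolic enzymes and assemble with each other into mixed hexamers. NME1 was first described as a metastasis suppressor, and NME2 has also been studied as a DNA-binding protein. NME4 is the mitochondrial enzyme, NME3 sits at the outer mitochondrial membrane, NME6 is a divergent mitochondrial member, and NME7 belongs to the γ-tubulin ring complex that starts microtubules.

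The libraries held between 37008325 and 49479476 estimated reads, with 15139 to 15595 genes at 10 reads or more. POLR3A was lower in the siPOLR3A libraries, at 17.6 CPM (read counts scaled to library size) against 90.8 CPM in siControl, as its label says. Of the epithelial markers, KRT18 averaged 30.7, KRT8 4.33, CDH1 2.60 and EPCAM 2.25 TPM (abundance scaled to library size and transcript length), and KRT19 was near 0. Of the kidney markers, PAX2 averaged 4.37 TPM and LHX1 1.28 TPM, whereas PAX8 was near 0 and CDH16 was listed at 0 in all 12 libraries. Of the leukocyte markers, PTPRC was listed at 0 throughout, CD3E was near 0, and CD14 stood at 0.121–0.182 TPM in siControl and 0.595–0.749 TPM in siPOLR3A, which was called higher (log2 fold change 2.01, SE 0.330). With ML60218 CD14 was not called. The 3 endothelial markers were each below 1 TPM. Of the fibroblast markers, COL1A1 averaged 21.4, LUM 4.17 and DCN 0.48 TPM. After the siRNA 1 of these 3 was called higher and 2 lower, against 27.4% higher and 29.2% lower of all genes. The fibroblast markers summed to 27.6–29.7 TPM in siControl, 28.6–32.9 in siPOLR3A, 21.5–22.4 in DMSO and 22.1–23.6 in ML60218. The epithelial markers summed to 34.2–36.3 TPM in siControl, 38.3–41.1 in siPOLR3A, 39.2–40.8 in DMSO and 42.8–45.3 in ML60218. After the siRNA 3 of the 4 epithelial markers tested were called higher and 0 lower. The part of these shifts in the NME values was not tested.

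NME1, NME2 and NME1-NME2 overlap on the plus strand of chromosome 17 (GRCh38). NME1 lies at chr17:51153536-51162428 and NME2 at chr17:51165435-51171747, with 3006 bases between them. NME1-NME2 spans both, at chr17:51153590-51171744. The most abundant read-through transcript, NME1-NME2-202, joins exon 4 of NME1 to exon 2 of NME2 and skips the last exon of NME1. None of its 1021 bases lies outside the exons of the leading NME1 and NME2 transcripts, so only its junction tells it apart. The 3 junctions are shown because the assignment of reads to these genes turns on them. Each is 30 bases, with the 15 bases after the junction in capitals, read from the GENCODE 29 transcripts.
NME1 exon 4 to last exon, chr17:51161258-51161742, spliced: catacaagttggcagGAACATTATACATGG
NME1-NME2 exon 4 of NME1 to exon 2 of NME2, chr17:51161258-51166841, spliced: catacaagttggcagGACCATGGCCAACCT
NME2 exon 1 to exon 2, chr17:51166483-51166841, spliced: ccctccagcttcccgGACCATGGCCAACCT
The read-through junction has its left side in common with NME1 and its right side in common with NME2.

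**Figure D1:**
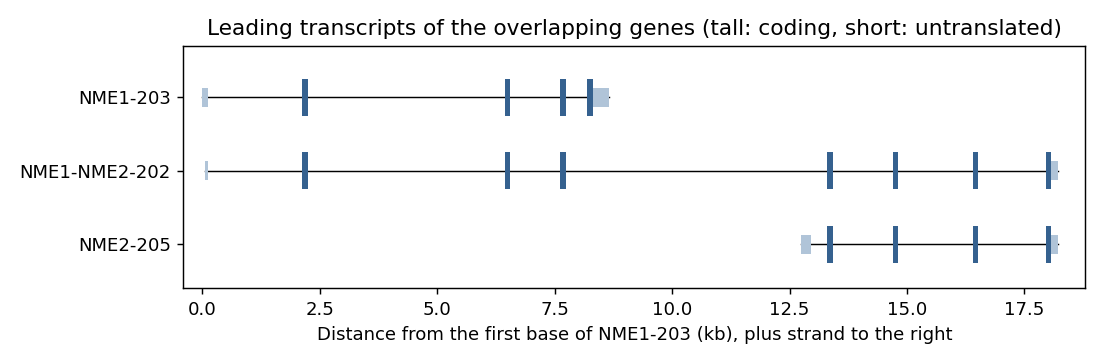
Exons of the leading transcripts of NME1, NME1-NME2 and NME2, by distance in kb from the first base of NME1-203, with coding parts tall and untranslated parts short. The last exon of NME1-203 and the first exon of NME2-205 are absent from NME1-NME2-202, and every other coding exon is shared.

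NME1 and NME2 themselves are similar but separable. Their coding sequences have 459 bases each, of which 371 (80.8%) are identical, and both proteins have 152 residues. The pair of windows with the most differences and the longest identical stretch show the range of that similarity. In the first, coding bases 103 to 132, capitals mark the 12 bases that differ. The identical stretch has 23 bases, coding bases 223 to 245.
NME1, chr17:51155757-51159985, spliced: ctTgtTgGTCtgaaAttcAtGcAAgcTtcC
NME2, chr17:51166933-51168247, spliced: ctCgtGgCCAtgaaGttcCtCcGGgcCtcT
NME1 and NME2, identical stretch: gccatggtctgggaggggctgaa
With no identical run longer than 23 bases in the coding sequence, 0 of the 910 windows of 31 bases in NME1-203 occurred in any NME2 transcript, and 0 of its 790 windows of 151 bases, the read length, did. The read-through gene is another matter. Of the 31-base windows of NME1-203, 42.9% also occurred in NME1-NME2 and 57.1% in no other gene. For NME2-205, 72.1% occurred in NME1-NME2 and 27.9% in no other gene. Genes outside the family also held 14.7% of the NME2-205 windows and 11.8% of those of NME1-NME2-202 at 31 bases, and 0% at 151 bases. For NME1-NME2-202, 24 of 991 windows (2.42%) were its own, and 16.5% at 151 bases. NME3-201, NME4-201 and NME7-201 held only windows of their own gene, and NME6-222 held 86.7%. These shares describe the GENCODE 29 versions. The deposited NME1-203 and NME2-205 had lengths of 890 and 690 bases, against 940 and 826 there.

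TPM allows levels of different genes to be set side by side. In siControl the order was NME2 at 777 ± 40.7 TPM (SD, n = 3, as for all values with ± below), NME1 at 306 ± 13.3, NME4 at 177 ± 4.94, NME3 at 64.5 ± 4.09, NME7 at 36.7 ± 1.86, NME6 at 24.1 ± 0.606 and NME1-NME2 at 8.63 ± 1.24. In DMSO the order was the same, with NME2 at 879 ± 46.5 and NME1 at 368 ± 12.3 TPM. The ranges of neighbouring genes in the order did not overlap in any of the 4 groups, the closest pair being NME1 and NME3 in siPOLR3A.

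The order differed in 1 group. In siPOLR3A, NME1 stood at 90.1 ± 1.45 TPM, below NME4 at 184 ± 11.1 and next to NME3 at 80.1 ± 5.71, while NME2 stood at 841 ± 19.6. NME2 was thus 2.54 ± 0.023 times as abundant as NME1 in siControl and 9.34 ± 0.259 times in siPOLR3A. In DMSO and ML60218 the ratio was 2.39 ± 0.048 and 2.34 ± 0.054. The 7 genes summed to 1331–1449 TPM in siControl and 1235–1304 in siPOLR3A, ranges that do not overlap.

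**Figure D2:**
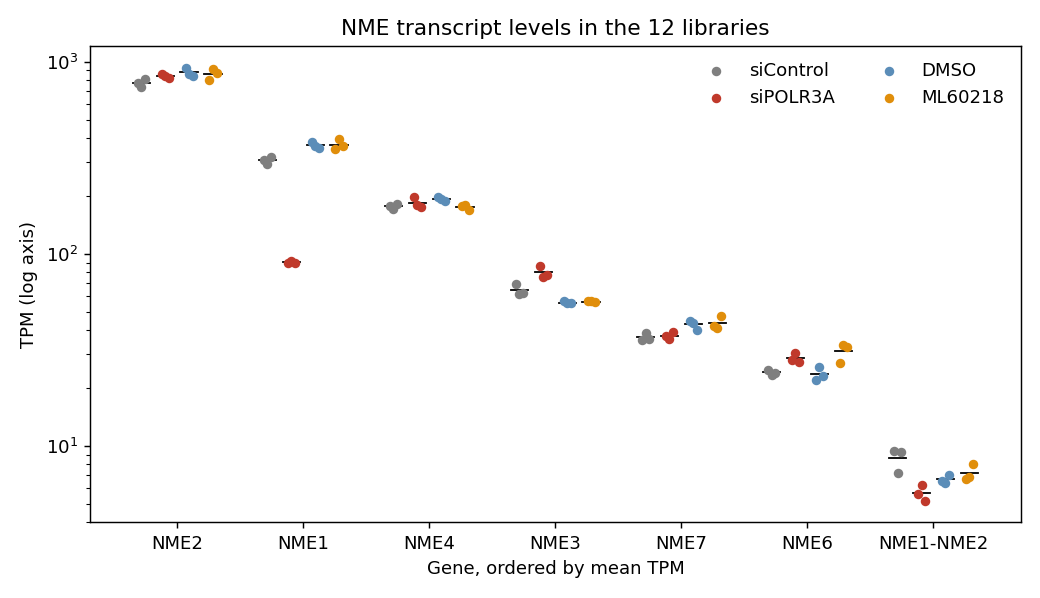
TPM of the 7 NME genes (log axis) in each library, coloured by group, with a bar at each group mean of 3 libraries. NME2 lies highest throughout, and NME1 stands below NME4 in the siPOLR3A libraries alone, at a mean of 90.1 TPM.

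The first comparison set siPOLR3A against siControl. Values are CPM scaled by TMM, which adjusts for composition but not for transcript length. NME1 had 171, 170 and 178 CPM in siControl and 49.9, 51.8 and 51.0 CPM in siPOLR3A. Every siPOLR3A library lay far below every siControl library, and the spread within a group was small beside the gap. The mean was 29.4% of the control (log2 fold change −1.77, SE 0.030), which was the 41st lowest of 15404 genes. In bulk RNA, fewer cells with the transcript and less RNA per cell cannot be told apart.

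Its neighbour NME2 had 288, 285 and 302 CPM in siControl and 319, 313 and 311 CPM in siPOLR3A. All siPOLR3A values were higher than all siControl values, by a margin similar to the spread within siControl. The log2 fold change was 0.11 (SE 0.026), 7.7% above the control mean. It ranged from 0.05, with the trend on GC content and length removed, to 0.17 with upper quartile scaling. On the CPM scale NME2 was higher by 22.5 and NME1 lower, at −122, so that the NME2 difference equalled 18.4% of the NME1 difference. That share depends on the scale, as CPM does not adjust for transcript length. In TPM the mean of NME2 went from 777 to 841 and that of NME1 from 306 to 90.1, which gives NME2 a larger share.

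The read-through gene NME1-NME2, which encodes a fusion of 267 residues, was low in every library. It had 6.70, 5.37 and 6.64 CPM in siControl and 3.98, 4.43 and 3.73 CPM in siPOLR3A. The groups did not overlap, and the log2 fold change was −0.62 (SE 0.115). The estimate rests on 128 to 256 reads a library, most of them in sequence shared with NME1 or NME2, and its uncertainty from read assignment is not in the SE.

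The sum of the counts over the 3 overlapping genes does not depend on how reads were divided among those 3. It was 466, 461 and 487 CPM in siControl and 373, 369 and 365 CPM in siPOLR3A, 78.3% of the control (log2 fold change −0.35, SE 0.025). The groups did not overlap. The log2 fold change ranged from −0.41 to −0.22, the latter on the TPM scale. A sum of TPM does depend on the division, as TPM is scaled to transcript length. Within the sum, NME1 held 36.8 ± 0.172% of the reads in siControl and 13.8 ± 0.360% in siPOLR3A, and NME2 61.9 ± 0.105% and 85.1 ± 0.403%. NME1-NME2 held between 0.830% and 1.44% in all 12 libraries.

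**Figure D3:**
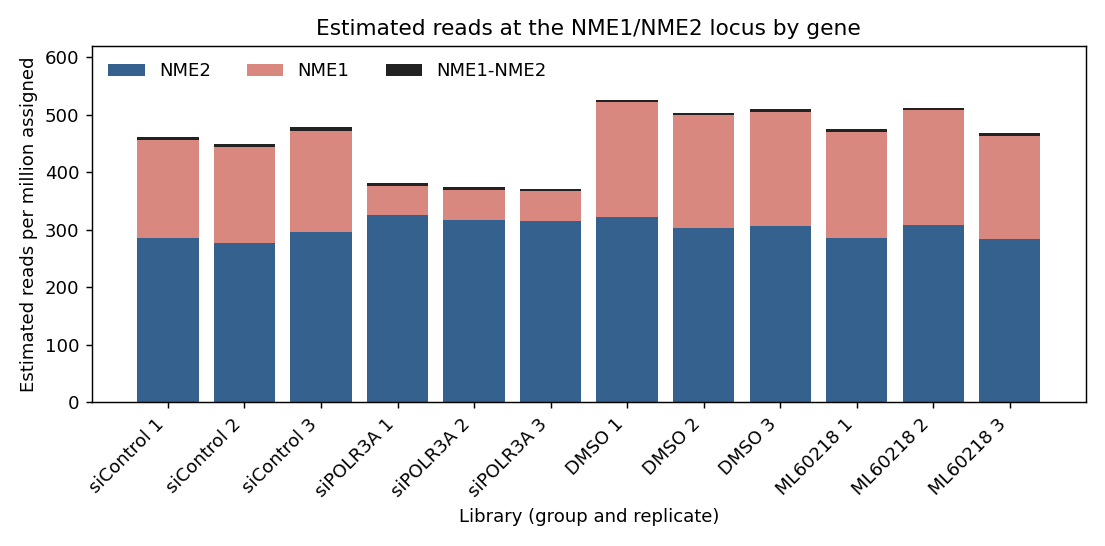
Estimated reads of NME2, NME1 and NME1-NME2 scaled to the assigned reads of each of the 12 libraries (CPM without TMM), stacked. The NME1 part is short in the 3 siPOLR3A libraries, and the NME2 part is of similar height in all 12.

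The lower level of NME1 was seen in its leading transcripts, NME1-203 and NME1-202, both coding. NME1-203 carried 86.1% to 93.8% of the gene's TPM in a library. It had 287, 271 and 295 TPM in siControl and 76.9, 81.2 and 79.4 TPM in siPOLR3A. NME1-202 had 12.9, 13.1 and 15.5 TPM in siControl and 2.64, 3.27 and 1.55 TPM in siPOLR3A. In both transcripts all siPOLR3A values lay below all siControl values, with log2 fold changes of −1.87 (SE 0.034) and −2.51 (SE 0.285) in CPM.

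The minor NME1 transcripts were mixed. The retained-intron transcripts NME1-208 and NME1-210 had 1.17–2.20 and 0.889–1.46 TPM in siControl. In siPOLR3A they had 1.34–2.12 and 1.36–1.71 TPM, with overlapping groups. The coding transcripts NME1-204 and NME1-209 overlapped too, with log2 fold changes of 0.84 (SE 0.551) and 0.31 (SE 0.198) in CPM. In these 6 libraries all 4 stood at or below 2.20 TPM, apart from 1 value of 3.72 for NME1-204, a level at which the division of reads among transcripts weighs heavily. NME1-206, annotated for nonsense-mediated decay, had 0.731–0.984 TPM in siControl and 0.385–0.740 in siPOLR3A. Its groups overlapped by a narrow margin in TPM and were apart in CPM, at a log2 fold change of −0.70 (SE 0.422). NME1-207, a coding transcript averaging 0.676 TPM, gave −0.99 (SE 0.621) in CPM with overlapping groups.

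**Figure D4:**
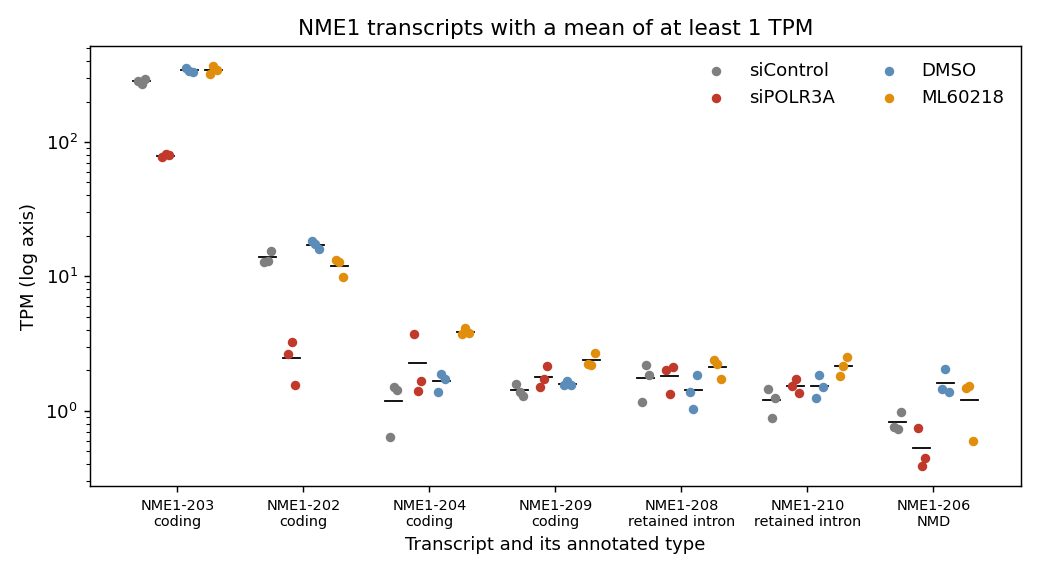
TPM of the NME1 transcripts with a mean of at least 1 TPM (log axis) in each library, coloured by group, with a bar at each group mean of 3 libraries and the annotated type under each name. NME1-203 and NME1-202 are low in siPOLR3A, while the 4 minor transcripts from NME1-204 to NME1-210 overlap between siControl and siPOLR3A.

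On the TPM scale NME2 showed no such split. Its leading transcript NME2-205, with 92.4% to 94.3% of the gene's TPM, had 733, 690 and 769 TPM in siControl and 805, 795 and 768 TPM in siPOLR3A. The groups overlapped by a narrow margin in TPM, whereas the CPM of the whole gene, given above, were apart. The coding transcripts NME2-201, NME2-204 and NME2-202 each averaged under 20 TPM, and their groups overlapped in TPM and in CPM.

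The mitochondrial members were steady or slightly higher. NME3 had 19.99, 19.2 and 18.5 CPM in siControl and 24.8, 22.7 and 23.2 CPM in siPOLR3A. The groups were apart, with a log2 fold change of 0.29 (SE 0.055), which was 0.11 once the GC and length trend was taken out. NME6 had 32.8, 34.1 and 34.1 CPM in siControl and 38.3, 39.7 and 39.6 CPM in siPOLR3A. Here too the groups were apart, with a log2 fold change of 0.22 (SE 0.038) that lay between 0.20 and 0.31 over all alternatives.

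For NME4 the means were 99.2 ± 1.67 and 101 ± 5.91 CPM, the groups overlapped, and the log2 fold change of 0.03 (SE 0.038) turned to −0.05 with the GC and length trend removed. NME7, the centrosomal member, had 28.8 ± 1.42 and 31.5 ± 1.51 CPM with overlapping groups and a log2 fold change of 0.13 (SE 0.051), which was 0.0021 with an offset for isoform length. Of the 7 genes, 4 were called higher and 2 lower at an adjusted p under 0.05 in edgeR, where 56.6% of all genes tested were called, 27.4% higher and 29.2% lower. The groups of 5 of the 7 did not overlap, 3 higher and 2 lower, against 63.4% of all genes, 31.1% higher and 32.4% lower. Among 51 member transcripts tested, 1 was called higher and 3 lower, against 5.73% and 7.4% of all transcripts. Since this comparison was part of the choice of the genes, nothing is read from those counts.

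**Figure D5:**
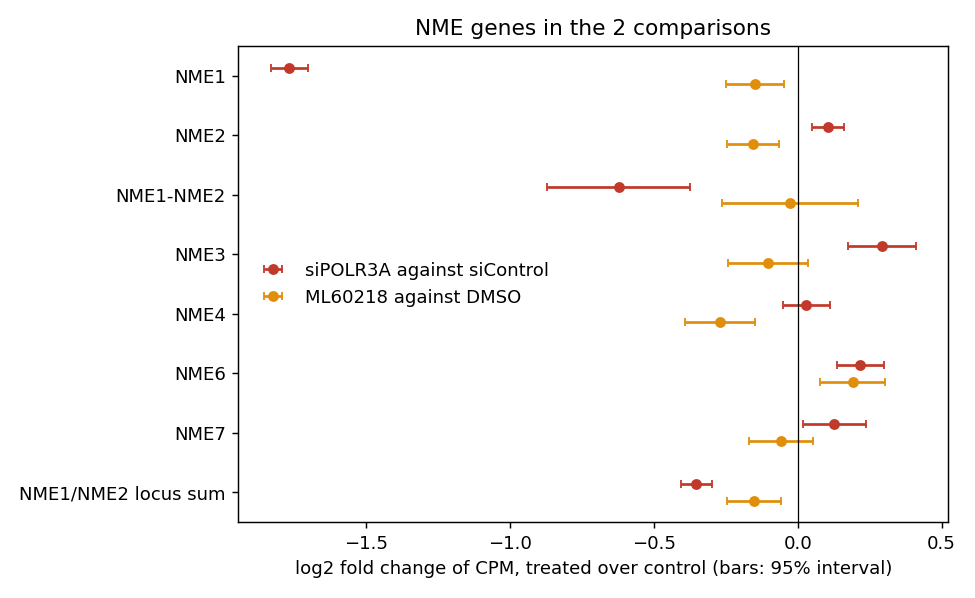
Log2 fold change of CPM, treated over control, for the 7 NME genes and for the summed NME1/NME2 locus, with bars for the 95% interval. The siRNA bars are a description and no test, since that comparison was part of the choice of the genes. After the siRNA NME1 stands at −1.77, and with ML60218 the values lie between −0.27 for NME4 and 0.19 for NME6, with NME1 and NME2 at −0.15 and −0.16 on this scale but near 0 on the TPM scale.

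The second comparison, ML60218 against DMSO, had no part in the choice and was tested. Of the 7 genes, NME1, NME2 and NME4 fell in CPM (NME1 turned to 0.0076 on the TPM scale), NME6 rose, and NME1-NME2, NME3 and NME7 were not called. That is 4 of 7 called in edgeR's quasi-likelihood test, where 39% of the 15461 genes tested were called, 18.1% higher and 20.9% lower. The median log2 fold change was −0.10 over the 7 genes and 0.0054 over all genes. The groups of 5 of the 7 did not overlap, 1 higher and 4 lower, against 51.9% of all genes, 24.8% higher and 27% lower.

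NME4 showed the clearest fall. It had 101, 101 and 104 CPM in DMSO and 90.9, 86.2 and 77.3 CPM in ML60218. The ML60218 values all lay lower and were more spread. The log2 fold change was −0.27 (SE 0.054, edgeR adjusted p 0.0042). It was −0.14 on the TPM scale and passed the test under every alternative run, with adjusted p between 7.64e-05 and 0.0402.

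NME6 went the other way. It had 34.6, 36.9 and 36.5 CPM in DMSO and 38.8, 42.1 and 42.4 CPM in ML60218. The groups did not overlap, and the log2 fold change was 0.19 (SE 0.050, edgeR adjusted p 0.0141). On the TPM scale it was 0.40, and TPM went from 23.5 ± 1.87 to 31.02 ± 3.53. The median of all genes also moved up on that scale, by 0.13 relative to the main fit. The call was lost without DMSO replicate 1 (0.16, adjusted p 0.0695) and without ML60218 replicate 2 (0.17, adjusted p 0.0537), with adjusted p from 0.0032 to 0.0695 over all alternatives.

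NME1 was only a little lower with the inhibitor. It had 204, 201 and 204 CPM in DMSO and 184, 195 and 171 CPM in ML60218. The groups were apart by a few CPM, and the log2 fold change was −0.15 (SE 0.046, edgeR adjusted p 0.0267). This fall depended on the scale. In TPM, NME1 had 381, 365 and 357 in DMSO and 350, 395 and 365 in ML60218, the groups overlapped, and limma gave a log2 fold change of 0.0076 (adjusted p 0.927). On that scale the median of all genes moved by 0.13 relative to the main fit. The call was also lost with upper quartile scaling, total counts, the isoform length offset and the GC and length trend taken out, where the log2 fold change lay between −0.13 and −0.079. It was lost too without any single DMSO library and without ML60218 replicate 1, with log2 fold changes between −0.16 and −0.14 and adjusted p between 0.0544 and 0.0859. Over all alternatives the adjusted p ran from 0.0066 to 0.927.

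NME2 gave almost the same value as NME1. It had 328, 311 and 317 CPM in DMSO and 283, 302 and 273 CPM in ML60218, lower in all 3 libraries. The log2 fold change was −0.16 (SE 0.041, edgeR adjusted p 0.0130). In TPM the groups overlapped, at 879 ± 46.5 in DMSO and 865 ± 55.9 in ML60218, with −0.024 in limma (adjusted p 0.772). The call was also lost with total counts (−0.086, adjusted p 0.109 in edgeR) and with the GC and length trend taken out (−0.023, adjusted p 0.684). Without DMSO replicate 1 the adjusted p was 0.0655, and over all alternatives it ran from 0.0021 to 0.772.

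The summed locus fell from 526 ± 10.2 to 474 ± 26.7 CPM (log2 fold change −0.15, SE 0.042, edgeR adjusted p 0.0164), and this call was lost on the TPM scale (−0.014), with total counts (−0.082, adjusted p 0.117) and with the GC and length trend taken out (−0.019, adjusted p 0.730). It was also lost without DMSO replicate 1 or 3, and the edgeR or limma adjusted p ran from 0.0028 to 0.863 over all alternatives. The division of reads within the locus stayed close. NME1 held 38.1%, 38.9% and 38.7% of them in DMSO and 38.9%, 39.0% and 38.0% in ML60218. The difference of 0.078 percentage points had an exact two-sided permutation p of 0.6, where 3 libraries against 3 cannot give less than 0.1.

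For the genes that were not called, the intervals show what the libraries allow. NME1-NME2 had 4.66 ± 0.404 CPM in DMSO and 4.57 ± 0.247 in ML60218, with a 95% interval of the log2 fold change from −0.26 to 0.21. For NME3, 15.3 ± 0.380 and 14.2 ± 0.614 CPM gave −0.10 (interval −0.24 to 0.03, edgeR adjusted p 0.218), although its groups did not overlap. For NME7, 31.5 ± 0.882 and 30.3 ± 1.33 CPM gave −0.06 (interval −0.17 to 0.05, edgeR adjusted p 0.402).

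Among 48 transcripts of the 7 genes that passed the filter, 1 was called with ML60218, where 3.23% of all transcripts were, 1.15% higher and 2.08% lower. It was NME4-201, the leading NME4 transcript with 64.3% to 72.5% of the gene's TPM, at 65.9 CPM in DMSO and 53.1 CPM in ML60218 (log2 fold change −0.31, SE 0.043, edgeR adjusted p 0.0274). The call was lost without any 1 of the 6 libraries (−0.32 to −0.28, edgeR adjusted p 0.0516 to 0.134) and with a replicate block (adjusted p 0.149). Over all its alternatives the adjusted p ran from 0.0320 to 0.149 in edgeR. NME1-203 (−0.15) and NME2-205 (−0.15) were not called. No NME6 transcript was called either, among 10 tested. The gene spread over 22 annotated transcripts, and its leading one by TPM, NME6-222, carried 18.4% to 25.6%. Whether that spread bears on the calls was not tested.

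The 5 genes below were closest to NME1 over the 12 libraries, by the root mean square distance between log2 CPM values centred on their means, among 10384 genes whose log2 CPM averaged at least 3. They were FADS1, a fatty acid desaturase (0.093), SLC16A1, a monocarboxylate transporter (0.094), TMEM183A (0.097), TXNDC12, an endoplasmic reticulum thioredoxin (0.110), and HERC5, an ISG15 ligase (0.111), where the median gene had 0.815. NME1 averaged 0.36 in siControl, −1.41 in siPOLR3A, 0.60 in DMSO and 0.45 in ML60218 on that centred log2 scale. FADS1 averaged 0.32, −1.51, 0.63 and 0.56. The pattern they have in common is thus the low siPOLR3A group, which is also what brought NME1 in.

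NME2 had other companions. Among its closest genes were DDOST, an oligosaccharyltransferase subunit (0.025), and the ribosomal protein genes RPS21 (0.028), RPS7 (0.031) and RPLP2 (0.033), against a median of 0.188. NME2 itself averaged between −0.07 and 0.08 in the 4 groups on the centred log2 scale.

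Copies of GAGGGA and GACGTA, 6-base sequences that had come up in an earlier look at these data, were counted on the transcript strand of the leading transcripts. GAGGGA occurred 1 time in the 350 bases of the NME1-203 3′ UTR and in none of the 3′ UTRs of the other 6 leading transcripts. It also occurred 1 time in the coding part of NME6-222. GACGTA occurred in no part of any of the 7 leading transcripts. Other transcripts of these genes were not searched. The NME1 copy begins at base 109 of the UTR, inside the last exon that NME1-NME2-202 lacks. It is shown with its flanks, the motif in capitals.
NME1-203, chr17:51161942-51161971: catcataatttgGAGGGAagctcttggagc
Of 10985 3′ UTRs with at least 350 bases, 13.4% held GAGGGA in their first 350 bases and 0.801% held GACGTA. Over whole 3′ UTRs of any length, 33.2% of 14106 held GAGGGA and 3.58% held GACGTA. Of the genes closest to NME1, FADS1 had 4 copies of GAGGGA in its 3′ UTR, SLC16A1 3, TMEM183A 2, HERC5 1 and TXNDC12 0. Those UTRs have 2786, 2044, 1808, 285 and 802 bases in the same order. Neither share is matched to these lengths, and the genes were picked by their likeness to NME1 in these same data. Nothing is thus read from these counts. These are matches of letters, and whether they bear on the levels was not tested.

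The remaining genes of the family were scarce, except for RP2, which encodes the activator of the GTPase ARL3. RP2 had 43.8 ± 2.18 CPM in siControl and 40.2 ± 2.37 in siPOLR3A, lower by −0.12 on the log2 scale with overlapping libraries. With ML60218 it was not called (−0.11, edgeR adjusted p 0.0605). NME5 and NME9, known from cilia and flagella, averaged 2.24 and 0.868 TPM and were called in neither comparison, and NME8 reached at most 0.114 TPM. Of the 3 genes tested, 1 was lower and 0 higher after the siRNA, against 29.2% lower and 27.4% higher of all genes. With ML60218 0 of the 3 were called in edgeR, against 39% of all genes, and 1 of them, RP2, had an unadjusted p under 0.05. The pseudogene NME2P1 reached at most 0.373 TPM and NME1P1 was listed at 0. NME2P2 and NME2P3 were not analysed here.

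The kinases one step earlier, which make the diphosphates that NME enzymes use, were mixed. After the siRNA 3 of 12 tested were higher, 2 lower and 7 not called, against 27.4% higher and 29.2% lower of all genes. GUK1, the guanylate kinase, had 53.3 ± 2.19 CPM in siControl and 58.7 ± 2.20 in siPOLR3A (log2 fold change 0.14, SE 0.039), and DTYMK, the thymidylate kinase, was not called (−0.06). With ML60218 0 of 12 rose and 3 fell, against 18.1% higher and 20.9% lower of all genes, a number near that background. Among the 3 was DTYMK (−0.13, edgeR adjusted p 0.0317). GUK1 (0.13) was not called. These calls are on the CPM scale. In TPM DTYMK averaged 77.8 in DMSO and 77.5 in ML60218 with overlapping groups, and GUK1 averaged 108 and 121 with groups apart. The median of all genes also moved up on the TPM scale, by 0.13.

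Among the genes of deoxynucleotide and CTP synthesis, 3 of 14 were higher after the siRNA, 5 lower and 6 not called, against 27.4% higher and 29.2% lower of all genes. DUT, which removes dUTP (log2 fold change 0.0011), and RRM1, the large subunit of ribonucleotide reductase (−0.03), were not called. With ML60218 0 of 14 rose and 6 fell, against 18.1% higher and 20.9% lower of all genes. DUT was among them, from 91.6 ± 1.22 to 78.4 ± 5.12 CPM (−0.22, edgeR adjusted p 0.0051). RRM1 (0.03) was not called. These calls too are on the CPM scale. In TPM DUT was lower as well, at 180 in DMSO and 171 in ML60218 with groups apart. RRM1 averaged 157 and 178 TPM with overlapping groups.

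The genes beside the locus on chromosome 17 were all lower after the siRNA, 3 of 3, against 29.2% of all genes called lower and 32.4% lower without overlap. SPAG9, a scaffold of JNK signalling, had 277 ± 9.11 CPM in siControl and 196 ± 2.55 in siPOLR3A (log2 fold change −0.50, SE 0.027). MBTD1, a subunit of the NuA4 acetyltransferase complex, gave −0.35 and UTP18, a factor in small ribosomal subunit assembly, gave −0.19, and the groups of all 3 were apart. The siRNA values of NME1 (−1.77) and NME1-NME2 (−0.62), which lie among them, were lower as well, while that of NME2 (0.11) was higher. With ML60218, SPAG9 rose by 0.21 and MBTD1 by 0.13 in CPM, while UTP18 fell by 0.14 (edgeR adjusted p 0.0011, 0.0265 and 0.0169). The fall of UTP18 depended on the scale, with means of 76.4 TPM in DMSO and 77.6 TPM in ML60218 and overlapping groups. SPAG9 (65.4 and 99.7 TPM) and MBTD1 (13.8 and 16.6 TPM) were higher on that scale too, where the median of all genes also moved up, by 0.13.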

How the data were processed

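Poly(A) RNA of 12 HEK293T libraries had been sequenced with a stranded kit. The deposited estimated counts (fractional) and the deposited TPM values are given for 194142 transcripts in columns named as salmon writes them, per the file headers. Per the submitters' processing notes, hg38, bcl2fastq 2.20, Trim Galore and DESeq2 were used. The quantifier's version, settings, strand setting and transcript release are not given in the sources used here.

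Groups came from the sample titles. Transcripts were assigned to genes by stable identifier in GENCODE 29 (GRCh38): 81.6% matched, with 91.0% to 91.6% of reads, and the rest stayed out of library sizes and tests. Gene values are sums of the estimated counts, rounded, which the planned test on gene counts required. Libraries of 37008325 to 49479476 estimated reads limit precision mainly for NME1-NME2. No replicate pair differed by less than sampling noise.

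Each comparison was fitted on its 6 libraries with edgeR 4.0.16 (R 4.3.3): filterByExpr (minimum count 10, minimum total 15), TMM, and the quasi-likelihood F test (two-sided, robust). Benjamini-Hochberg adjustment ran over all genes, and a call means an adjusted p under 0.05. SE is that of the log2 fold change, and 95% intervals use the t quantile at its degrees of freedom. CPM use TMM factors. For the locus sum, NME1, NME2 and NME1-NME2 were replaced by 1 feature. Fits were tested on simulated data. Alternatives were DESeq2 1.42.0, limma 3.58.1 on log2(TPM + 0.1), other scalings, no filter, an offset for isoform length, a replicate block, leaving out each library and, chosen after seeing the data, removal of the trend on GC content and length.

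The genes and gene lists were chosen with earlier results of these data known. Named were the 7 genes, their transcripts with a mean of at least 1 TPM where a result turned on them, the 3 genes of each related list with the highest mean TPM, all neighbours and pseudogenes, and the 5 genes closest to NME1 and to NME2. Some genes that this rule takes are not reported here.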

Additional observations from a re-analysis of the deposited data

How the results depend on the processing

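After the siRNA the NME1 log2 fold change stayed between −1.78 and −1.67 and that of the locus sum between −0.41 and −0.22 over 15 alternatives each, and the count of called genes between 6818 and 8901. With ML60218 the count was 4068 to 6501. The direction of NME4 and NME6 and the call of NME4 in this comparison held in all 15.

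NME1 with ML60218 was −0.11 (adjusted p 0.0722) with upper quartile scaling, −0.079 (0.169) with total counts, −0.13 (0.0663) with the isoform length offset, −0.087 (0.0923) with the GC and length trend removed, a correction chosen after seeing the data, and 0.0076 in limma on TPM, where the sign turned. NME2 was −0.086 (0.109) with total counts, −0.024 (0.772) on TPM and −0.023 (0.684) with the trend removed, and the locus sum −0.082 (0.117), −0.014 (0.863) and −0.019 (0.730), so all of these lost the call. On TPM the median of all genes moved by 0.13 relative to the main fit in this comparison, and 82.5% of called genes were higher, against 2800 of 6029 in the main analysis, while total counts gave 67.0% and upper quartile scaling 58.6%. After the siRNA upper quartile scaling gave 58.7%, against 4222 of 8722. The cause was not tested. Leaving out 1 library at a time gave −0.20 to −0.099 for NME1, −0.20 to −0.12 for NME2, −0.20 to −0.11 for the locus sum and 0.16 to 0.23 for NME6.

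Transcript calls were unstable. After the siRNA 7719 transcripts were called, 3642 with a replicate block and 4993 to 5383 without 1 library. With ML60218 there were 1913, with 1242 when no filter was applied and 0 with the replicate block in edgeR (9347 had an unadjusted p under 0.05), and between 0 and 1185 without 1 library (9166 to 11935 unadjusted).

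No pairing by replicate number was visible: deviations of same-numbered libraries correlated between −0.106 and −0.023. With 3 libraries in a group this cannot show that they were unpaired. With the block, the calls of NME1, NME2, NME4, NME6 and the locus sum with ML60218 were kept.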
